A study of Mus musculus with 22 samples.

Results

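The interleukin-1 (IL-1) family was followed through 10 of its genes in mouse macrophages differentiated in culture from bone marrow, here called BMDM. The members were the ligand genes Il1a, Il1b, Il1f6, Il1f9, Il18 and Il33, the antagonist genes Il1rn and Il18bp, and the receptor genes Il1r2 and Il1rap, and every probe whose RefSeq accession carries one of these symbols was used. These 10 genes were represented by 11 probes, and all 10 were among the 22346 genes tested. Donor animals were wild type (wt), deficient in the protein kinase MK2 (MK2-/-) or deficient in MK2 together with MK3 (MK2/3-/-), all male, of strain C57BL/6 in the labels (C57BL/6J in the methods) and 10 to 14 weeks old. MK2 and MK3 are kinases activated by the stress kinase p38. Marrow was differentiated with M-CSF, the growth factor that drives macrophage formation, which the study's methods took out of the medium shortly before the experiment, and the cells then received LPS (lipopolysaccharide of Gram-negative bacteria) at 100 ng/ml or medium alone for 360 min. LPS was given to 3 wt, 4 MK2-/- and 4 MK2/3-/- cultures, and medium alone to 4 wt, 4 MK2-/- and 3 MK2/3-/- cultures, so that 22 arrays were compared. Groups follow each sample's own labels, and the series' design text differs from them in giving 3 replicates to medium-treated MK2-/- BMDM, where Mapkapk2 lay between 8.70 and 9.01 on all 4 arrays. The deletions are germline, so the cells lacked the kinases throughout differentiation, and MK3 was never missing alone in these groups.

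IL-1 family ligands are early messengers of inflammation. IL-1α (Il1a) and IL-1β (Il1b) signal through the receptor IL-1R1 together with its partner IL-1RAcP (Il1rap), whereas the IL-1 receptor antagonist (Il1rn) blocks that receptor and the decoy receptor IL-1R2 (Il1r2) captures ligand without signalling. IL-36α (Il1f6, now named Il36a) and IL-36γ (Il1f9, now named Il36g) use a related receptor that shares IL-1RAcP, IL-33 (Il33) uses the receptor ST2, and IL-18 (Il18) is held back by the soluble IL-18 binding protein (Il18bp). Macrophages are a main source of IL-1β, whose precursor is cut by caspase-1.

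All values below are log2 signals of 1 probe after quantile normalisation over the 22 arrays, or differences between such signals, and a unit of 1 is a doubling. Levels of different probes are not comparable, since each probe has its own brightness. The RefSeq accessions were NM_010554 for Il1a, NM_008361 for Il1b, NM_019450 for Il1f6, NM_153511 for Il1f9, NM_008360 for Il18, NM_001164724 for Il33, NM_001039701 for Il1rn, NM_010531 for Il18bp, NM_010555 for Il1r2, and NM_134103 and NM_008364 for the probes of Il1rap. The arrays of each genotype shared a slide, so genotype and slide cannot be told apart in the comparisons of genotypes, whereas an additive slide effect cancels in a difference of LPS responses. As the RNA came from whole cultures, fewer cells of a type and less RNA per cell cannot be told apart.

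The targeted kinases were lower where the labels name a deletion, although where the probes lie relative to the deleted parts was not known. Mapkapk2, the gene of MK2, had a mean log2 signal of 14.89 ± 0.55 (SD, n = 3) in LPS-treated wt BMDM, 11.61 ± 0.30 (n = 4) in MK2-/- and 11.02 ± 0.16 (n = 4) in MK2/3-/- BMDM. Mapkapk3, the gene of MK3, ranged from 11.94 to 12.23 and from 11.92 to 12.57 in the first 2 genotypes and from 7.65 to 8.55 in MK2/3-/- BMDM. Of 8 macrophage markers, 7 had a RefSeq probe, and all 7 were well above background on every LPS array. Stromal markers varied within groups, with summed signals from 3245 to 104021 over the wt medium arrays. Between 61.1% and 78.0% of the probes were well above background on an array. The LPS-treated MK2-/- array 3 stood apart with 2927 spots marked as outliers, against 115 to 261 on the other arrays, and the medium-treated wt array 4 stood apart in the inflammatory genes (below).

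Promoters of 4 members are shown, those of Il1a, Il1b and Il1rn because all 3 rose strongly with LPS and that of Il1f9 because its LPS signal differed between genotypes. RefSeq gives 12 promoter windows for 9 members on the build GRCm38.p6, each from 250 bases before the start to 50 bases after it, and Il1f6 has none in the table. The following 4 windows are given on the strand of the gene, with searched motifs in capitals. They are chr2:129309923-129310222 on the minus strand for Il1a, chr2:129371090-129371389 on the minus strand for Il1b, chr2:24336610-24336909 on the plus strand for Il1rn (the first of its 3 starts) and chr2:24186226-24186525 on the plus strand for Il1f9.
Il1a: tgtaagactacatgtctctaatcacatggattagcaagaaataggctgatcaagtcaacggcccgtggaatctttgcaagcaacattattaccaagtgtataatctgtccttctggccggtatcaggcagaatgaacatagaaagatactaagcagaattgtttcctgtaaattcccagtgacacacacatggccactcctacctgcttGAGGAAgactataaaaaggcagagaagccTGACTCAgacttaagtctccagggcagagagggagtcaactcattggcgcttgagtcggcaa
Il1b: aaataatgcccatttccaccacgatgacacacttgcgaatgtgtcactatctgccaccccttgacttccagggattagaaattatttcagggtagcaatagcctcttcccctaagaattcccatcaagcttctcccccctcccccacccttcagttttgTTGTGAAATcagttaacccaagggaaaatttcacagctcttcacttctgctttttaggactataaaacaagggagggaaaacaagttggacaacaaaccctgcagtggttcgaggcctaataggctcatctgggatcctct
Il1rn: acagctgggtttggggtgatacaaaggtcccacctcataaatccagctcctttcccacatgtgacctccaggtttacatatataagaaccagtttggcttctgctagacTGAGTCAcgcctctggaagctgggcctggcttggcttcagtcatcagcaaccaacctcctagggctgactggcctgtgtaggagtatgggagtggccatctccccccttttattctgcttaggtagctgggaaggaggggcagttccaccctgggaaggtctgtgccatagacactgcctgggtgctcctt
Il1f9: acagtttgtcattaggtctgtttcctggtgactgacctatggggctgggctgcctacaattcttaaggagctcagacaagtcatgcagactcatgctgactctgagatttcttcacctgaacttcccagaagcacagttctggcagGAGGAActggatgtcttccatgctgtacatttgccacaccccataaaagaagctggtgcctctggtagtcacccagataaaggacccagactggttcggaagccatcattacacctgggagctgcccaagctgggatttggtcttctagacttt
The capitals mark TGANTCA, the core letters read by AP-1 factors, in Il1a from position -12 and in Il1rn from position -141 relative to the start, TTNNGNAAT, letters read by C/EBP factors, in Il1b from position -91, and GAGGAA, letters read by ETS factors such as PU.1, in Il1a from position -41 and in Il1f9 from position -104. Both strands were searched and the marked motifs did not overlap. Over all 32851 windows of this length, TGANTCA was found in 7.81%, TTNNGNAAT in 11.5% and GAGGAA in 28.3%. The NF-κB consensus (8.46% of all windows) and TGACGTCA (1.79%) had no match in any window of a member, and the letters GAAA, 2 bases of any kind and GAAA again (3.44%), read by interferon regulatory factors, matched in that of Il1rap alone. No match says only that these letters are not in the window.

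Treatment with LPS raised most of the family in every genotype. In wt BMDM, 8 of 10 members were called higher and none lower (adjusted p below 0.05 by limma over all tested genes), beside 18.6% of all genes called higher. In MK2-/- and MK2/3-/- BMDM, 9 of 10 were called higher each, beside 17.6% and 20.3% of all genes. The 9 comprised all 6 ligands, both antagonists and Il1rap, and Il1r2 was the exception. The median log2 difference over the 10 members was 5.65 in wt, 5.45 in MK2-/- and 5.05 in MK2/3-/- BMDM, beside -0.04, -0.01 and 0.02 over all genes. A fold against a group in which no array measured the probe well above background is given as a lower bound ("at least"). On each array of that group the probe's value, or the dimmest value that any probe well above background had there if this was brighter, entered the mean. With such differences at their bound the medians in MK2-/- and MK2/3-/- BMDM were 4.25 and 4.10. The bound entered for 0 members in wt, 2 in MK2-/- and 4 in MK2/3-/- BMDM, so these medians are not comparable between genotypes. In wt, Il1f6 and Il33 had no bound only because the medium array 4 was well above background.

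**Figure D1:**
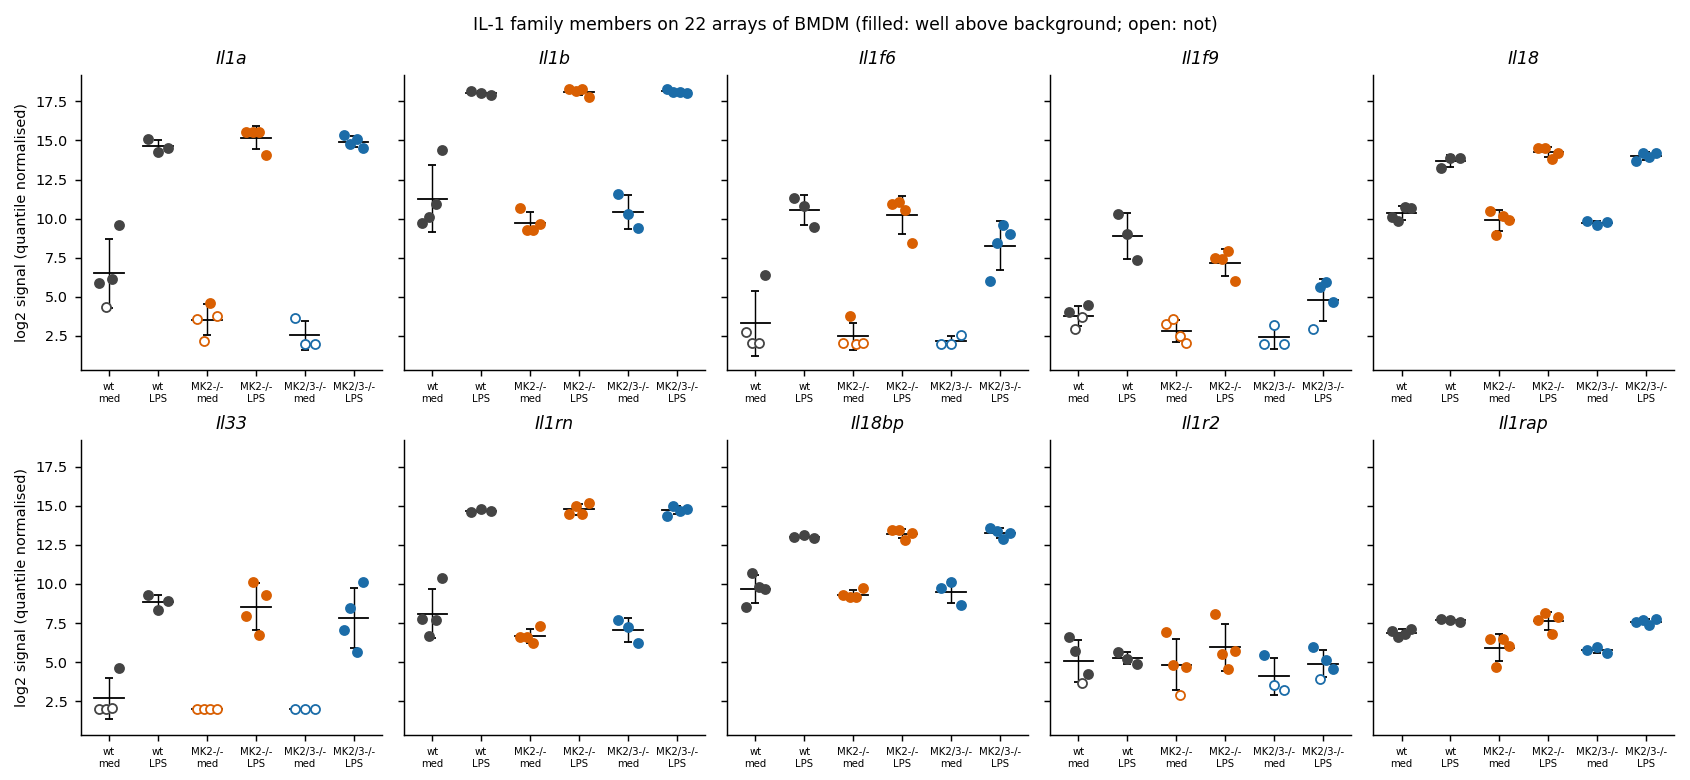
Log2 signal (quantile normalised, vertical axis) of the 10 members on each of the 22 arrays, by genotype and treatment (horizontal axis, med for medium). Points are arrays, filled where the probe was well above background, horizontal lines are group means and bars are 1 SD. LPS-treated Il1f9 steps down from wt (7.36 to 10.32) to MK2/3-/- BMDM (2.93 to 5.94).

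Of the ligands, Il1a, which is also known as an alarmin of damaged cells, had the widest change. Its log2 signal was 5.90, 4.33, 6.15 and 9.59 in medium-treated wt BMDM and 15.08, 14.24 and 14.52 with LPS. In MK2-/- BMDM it was 3.61, 2.17, 4.60 and 3.80 in medium and 15.56, 15.55, 15.51 and 14.09 with LPS. Its MK2/3-/- values were 3.62, 1.99 and 1.99 in medium, none well above background, and 15.35, 14.75, 15.12 and 14.51 with LPS. Within each genotype every LPS array lay above every medium array, as LPS and medium arrays did not overlap for 48.8%, 41.9% and 50.3% of all genes in wt, MK2-/- and MK2/3-/- BMDM, and the LPS arrays of the 3 genotypes overlapped. Il1a rose by 8.12 ± 0.84 (SE, log2) in wt BMDM (adjusted p = 2.97e-07) and by 11.63 ± 0.77 without MK2 (5.55e-10). The latter size is not exact, since only 1 of 4 medium-treated MK2-/- arrays was well above background. Without both kinases Il1a was at least 2099-fold higher with LPS (8.48e-10).

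Il1b, the main secreted IL-1 of macrophages, lay between 17.80 and 18.31 on all LPS arrays. In medium its log2 signal was 9.71, 10.08, 10.96 and 14.38 in wt, 10.71, 9.29, 9.26 and 9.63 in MK2-/-, and 11.60, 10.32 and 9.41 in MK2/3-/- BMDM. With LPS it was 18.19, 18.03 and 17.88 in wt, 18.27, 18.14, 18.31 and 17.80 in MK2-/-, and 18.29, 18.11, 18.12 and 18.01 in MK2/3-/- BMDM. The 3 genotypes overlapped under LPS, and no spot was marked as saturated. The rise was 6.75 ± 0.75 in wt (adjusted p = 7.92e-07), 8.41 ± 0.69 in MK2-/- (8.95e-09) and 7.69 ± 0.75 in MK2/3-/- BMDM (8.25e-08).

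The IL-36 ligands, better known from epithelia, were at or near background in medium. Il1f6 was well above background on 1 of 4 medium arrays of wt, 1 of 4 of MK2-/- and 0 of 3 of MK2/3-/- BMDM, and with LPS its log2 signal was 11.35, 10.78 and 9.48 in wt, 10.91, 11.07, 10.58 and 8.44 in MK2-/-, and 6.02, 8.47, 9.57 and 9.01 in MK2/3-/- BMDM. It was called higher with LPS in each genotype, by 7.24 ± 0.96 in wt, by 7.79 ± 0.89 in MK2-/- and by at least 20.7-fold in MK2/3-/- BMDM (adjusted p = 6.85e-06, 6.24e-07 and 3.09e-05). The sizes in wt and MK2-/- BMDM are not exact, since only 1 of 4 medium arrays of each was well above background. Without the bound, the log2 estimate for Il1f6 in MK2/3-/- BMDM was 6.09. Il1f9 was well above background on 2 of 4 medium arrays of wt and on none of the knockouts. With LPS its log2 signal was 10.32, 9.03 and 7.36 in wt, 7.46, 7.41, 7.93 and 5.98 in MK2-/-, and 2.93, 5.62, 5.94 and 4.66 in MK2/3-/- BMDM, the first of which was not well above background. The rise of Il1f9 was 5.12 ± 0.71 in wt (adjusted p = 1.10e-05), at least 6.82-fold in MK2-/- (1.84e-05) and at least 1.85-fold in MK2/3-/- BMDM (0.00908). Its wt size is not exact, since only 2 of 4 medium-treated wt arrays were well above background. In MK2/3-/- BMDM the LPS and medium arrays of Il1f9 overlapped, and the call was lost with normexp background correction (0.59, adjusted p = 0.204) and with the methods' t-test after adjustment (adjusted p = 0.0895).

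Il33 and Il18 rose by different amounts. Il33, a nuclear cytokine of barrier and stromal cells, was at background on 10 of 11 medium arrays, with 4.65 on the wt array 4 as the exception, and with LPS ranged from 8.34 to 9.28 in wt, 6.72 to 10.15 in MK2-/- and 5.67 to 10.13 in MK2/3-/- BMDM. The rise was 6.17 ± 0.86 in wt, at least 17.3-fold in MK2-/- and at least 15.2-fold in MK2/3-/- BMDM (adjusted p = 1.19e-05, 1.47e-06 and 1.42e-05). The wt size is not exact, since only 1 of 4 medium-treated wt arrays was well above background. Without the bound, the log2 estimates for Il33 were 6.52 in MK2-/- and 5.83 in MK2/3-/- BMDM, and a bound beside a size does not show a smaller rise. Il18, whose product drives interferon-γ release from lymphocytes, was well above background on all 22 arrays. Its log2 signal was 10.11, 9.85, 10.76 and 10.66 in wt medium and 13.22, 13.90 and 13.89 with LPS, a rise of 3.33 ± 0.31 (adjusted p = 9.40e-08), and it rose by 4.38 ± 0.29 in MK2-/- and 4.27 ± 0.31 in MK2/3-/- BMDM.

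Both antagonists rose with their ligands. Il1rn had log2 signals of 7.74, 6.64, 7.67 and 10.38 in wt medium and of 14.58, 14.77 and 14.68 with LPS, without overlap. In MK2-/- BMDM its medium arrays ran from 6.22 to 7.31 and its LPS arrays from 14.46 to 15.17, and in MK2/3-/- BMDM from 6.20 to 7.71 and from 14.37 to 14.96. The rise of Il1rn was 6.57 ± 0.57 in wt (adjusted p = 3.62e-08), 8.08 ± 0.53 in MK2-/- (4.56e-10) and 7.65 ± 0.57 in MK2/3-/- BMDM (2.83e-09). Il18bp rose by 3.34 ± 0.39, 3.90 ± 0.36 and 3.76 ± 0.39 in the same order (adjusted p = 1.34e-06, 3.52e-08 and 1.62e-07), and its LPS arrays lay between 12.78 and 13.59 in all genotypes.

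The receptors had smaller differences than the other members in wt and MK2-/- BMDM. Il1r2 had log2 signals from 3.65 to 6.60 in wt medium and from 4.89 to 5.67 with LPS, and its LPS and medium arrays overlapped in every genotype. Its log2 difference was 0.18 in wt (95% confidence interval -1.71 to 2.07, adjusted p = 0.896), 1.12 in MK2-/- (-0.63 to 2.87, 0.305) and 0.81 in MK2/3-/- BMDM (-1.08 to 2.70, 0.499). Il1rap, measured by its brighter probe, was 7.01, 6.61, 6.83 and 7.11 in wt medium and 7.78, 7.67 and 7.55 with LPS. Its difference with LPS was 0.78 ± 0.35 in wt (adjusted p = 0.0795), which did not pass although the arrays did not overlap, and it rose by 1.71 ± 0.32 in MK2-/- and 1.82 ± 0.35 in MK2/3-/- BMDM (adjusted p = 2.04e-04 and 2.18e-04). The second probe of Il1rap was called higher in wt too, by 1.58 ± 0.48 (adjusted p = 0.0177 in a fit of all non-control probes). The brighter probe passed in wt under 7 of 14 alternative settings and without the medium-treated MK2-/- array 2 (adjusted p = 0.0156).

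**Figure D2:**
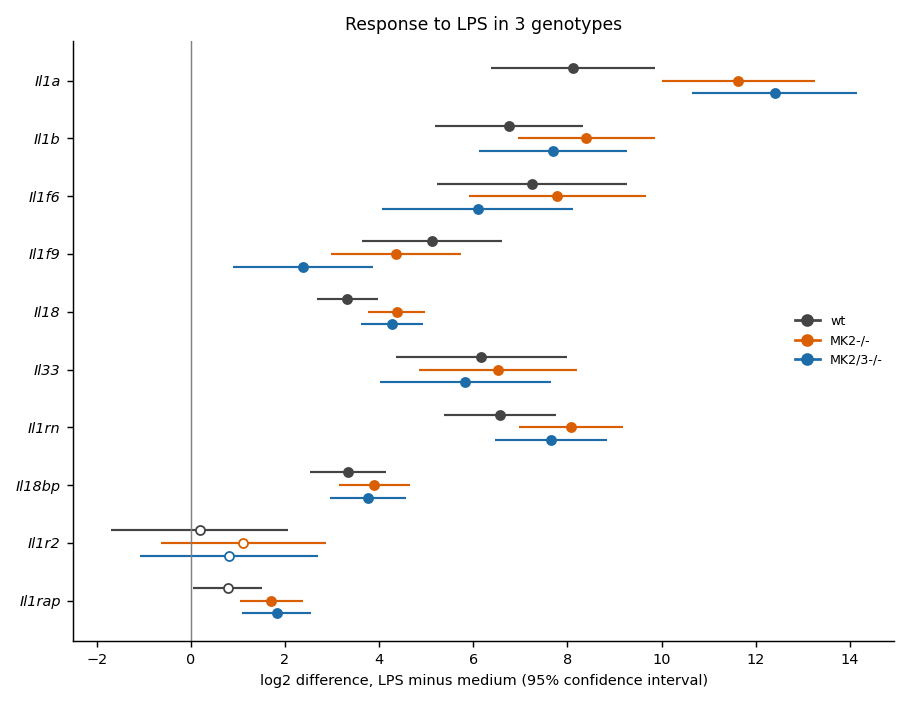
Log2 difference between LPS and medium (horizontal axis) for the 10 members in wt, MK2-/- and MK2/3-/- BMDM. Points are estimates, lines are 95% confidence intervals, and filled points were called at an adjusted p below 0.05. Differences are largest for Il1a, at 8.12 to 12.40, and those of Il1r2 include 0 in each genotype, and estimates against groups at background are not bounds.

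Under LPS, the kinase deletions were compared directly to ask which members depended on genotype. No member was called between MK2-/- and wt BMDM, where 11.6% of all genes were called, and 1 of 10 members had an unadjusted p below 0.05 by limma. In MK2/3-/- against wt BMDM 1 of 10 members, Il1f9, was called, beside 23.7% of all genes. In MK2/3-/- against MK2-/- BMDM Il1f9 was again the 1 member called, beside 13.6% of all genes. Il1f9 was lower in both, beside 14.0% and 5.84% of all genes called lower, and the comparisons share the MK2/3-/- arrays.

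Under LPS, Il1f9 had the largest genotype difference of the 10 members. Its log2 signal under LPS, given above, fell by 4.12 ± 0.71 in MK2/3-/- compared to wt BMDM (adjusted p = 6.41e-04), and the arrays did not overlap, as for 28.3% of all genes. Compared to MK2-/- BMDM it fell by 2.41 ± 0.66 (adjusted p = 0.0209), again without overlap, as for 14.3% of all genes. Between MK2-/- and wt BMDM, whose arrays overlapped, the log2 difference was -1.71 ± 0.71 (adjusted p = 0.117). Neither size against MK2/3-/- BMDM is exact, since Il1f9 was well above background on only 3 of 4 of its LPS arrays. The comparison with wt kept its call in all 22 fits that left out 1 array and in 13 of 14 alternatives, the exception being the methods' t-test after adjustment (adjusted p = 0.110). Over these fits and alternatives its log2 difference ran from -4.89 to -2.48. The comparison with MK2-/- BMDM lost its call without any 1 of the LPS-treated MK2-/- arrays 1, 2 or 3 (adjusted p = 0.0588, 0.0543 and 0.0524) or the LPS-treated MK2/3-/- array 1 (0.0644), and under 4 of 14 alternatives, among them scaling to the 75th percentile (-1.98, adjusted p = 0.0813). The difference between the LPS responses of MK2/3-/- and wt BMDM was -2.73 for Il1f9 (95% confidence interval -4.84 to -0.63), which did not pass over all genes (adjusted p = 0.250) and in which Il1f9 was at background in medium-treated MK2/3-/- BMDM, so that its size is not exact.

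Other cell types' markers were measured beside this difference. The 4 T cell markers were Cd3d, Cd3e, Cd3g and Lck, and Cd3g was well above background on no LPS array. Their summed signal under LPS ran from 3398 to 4520 in wt, 4945 to 7358 in MK2-/- and 10126 to 15807 in MK2/3-/- BMDM. This order was opposite to that of Il1f9. On every LPS array of its group, 3, 2 and 2 of the 4 markers were well above background, and a sum is led by its brightest probe. In medium the same sum ran from 1114 to 1883, from 2413 to 5307 and from 1651 to 2428, so it was lower there in wt and MK2/3-/- BMDM. The summed signal of 6 stromal or endothelial markers under LPS ran from 12122 to 61407 in wt, 3068 to 19467 in MK2-/- and 1925 to 30605 in MK2/3-/- BMDM. Summed signals of neutrophil, mast cell or basophil, B cell and dendritic cell markers under LPS overlapped between all 3 genotypes. For neutrophil markers they ran from 7342 to 12356 in wt, 4697 to 12121 in MK2-/- and 4276 to 13969 in MK2/3-/- BMDM. The part of any of these markers in the Il1f9 difference was not tested.

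Il1f6 lay lower in MK2/3-/- than in wt BMDM by a log2 difference of -2.27 ± 0.96 (95% confidence interval -4.29 to -0.25), which did not pass (adjusted p = 0.0956), and 1 LPS-treated MK2/3-/- array at 9.57 overlapped the wt range. It passed without the medium-treated wt array 4 (adjusted p = 0.0375) and with normexp background correction (-1.93, adjusted p = 0.0183). For Il1a, Il1b, Il1rn, Il18, Il18bp and Il1rap no comparison of genotypes under LPS passed. For Il1b the interval of the difference between MK2/3-/- and wt BMDM was -1.47 to 1.67, for Il1rn -1.17 to 1.22 and for Il18 -0.31 to 1.00. For Il33 it was -2.83 to 0.78, and for Il1r2 -2.24 to 1.54. These intervals rest on 1 spread per gene shared by all 6 groups, medium groups included, and not on the LPS arrays alone. The SD of Il1b was 2.13 in wt medium, but 0.16 in LPS-treated wt and 0.12 in LPS-treated MK2/3-/- BMDM. For Il1rn the SDs were 1.60, 0.09 and 0.25 in the same order.

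**Figure D3:**
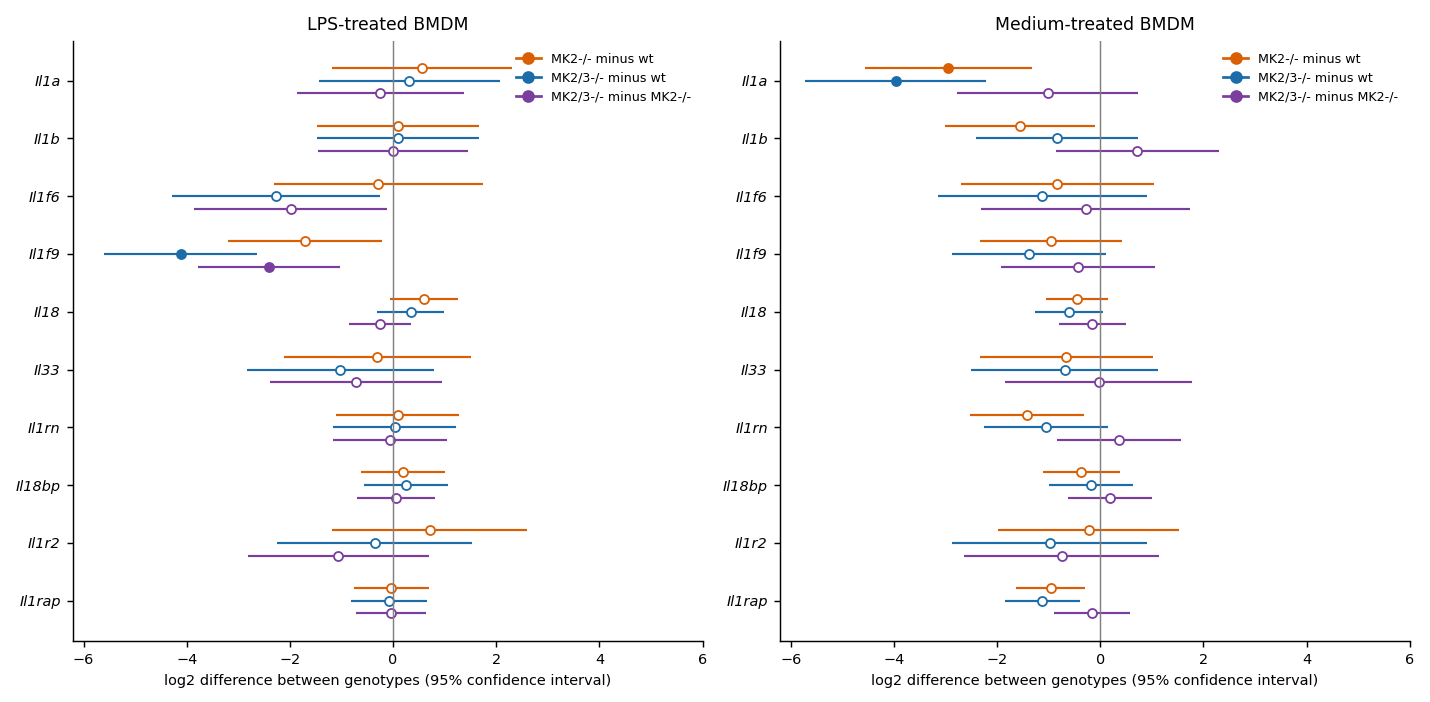
Log2 difference between genotypes (horizontal axis) for the 10 members, in LPS-treated BMDM on the left and medium-treated BMDM on the right. Points are estimates, lines are 95% confidence intervals, and filled points were called at an adjusted p below 0.05. Filled points are Il1f9 under LPS, at -4.12 and -2.41, and Il1a in medium, at -2.95 and -3.97. Of these, -3.97 is an estimate against a group at background and no bound, and -2.95 is against a group with 1 of 4 arrays well above background. Both Il1f9 values are for a group with 3 of 4 arrays well above background.

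In medium, Il1a differed between genotypes. It was called lower in MK2-/- than in wt BMDM, as 1 of 10 members beside 8.88% of all genes called and 3.13% called lower, with a log2 difference of -2.95 ± 0.77 (adjusted p = 0.0261), and MK2-/- arrays overlapped the wt array at 4.33. Il1a was well above background on only 1 of 4 of these MK2-/- arrays, so the size of this difference is not exact. It was also called lower in MK2/3-/- than in wt BMDM, as 1 of 10 members beside 2.02% called and 0.524% called lower, at least 6.05-fold (adjusted p = 0.0270) and without overlap, as for 24.0% of all genes. This bound was 2.96-fold without the medium-treated wt array 4 (adjusted p = 0.0331) and 9.97-fold without array 2 (0.00942). Both calls depended on which arrays were included. The first lost its call without the medium-treated wt array 4 (-1.92, adjusted p = 0.0555) or without the medium-treated MK2-/- array 1 or 2 (adjusted p = 0.0510 and 0.0961), and the second without the medium-treated wt array 1 (adjusted p = 0.0583) or any of the 3 medium-treated MK2/3-/- arrays (adjusted p = 0.0688, 0.0734 and 0.0846). Neither passed with normexp background correction (-1.23 and -1.35, adjusted p = 0.116 and 0.178) or with only the compared groups fitted (adjusted p = 0.117 and 0.107). No member was called between MK2/3-/- and MK2-/- BMDM in medium (0 of 10 with an unadjusted p below 0.05 by limma), beside 2.83% of all genes.

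The medium-treated wt array 4 had the highest signal of its group for 7 of 10 members. It lay above the mean of the other 3 arrays by 4.13 for Il1a, 4.13 for Il1b, 4.13 for Il1f6, 3.03 for Il1rn and 2.63 for Il33, and by 0.91 for Il1f9. Il6, a cytokine gene that LPS induces, had 13.36 on this array and 8.52, 6.41 and 10.02 on the others. Mapkapk2 was 12.39 on it and 10.77 to 12.39 on the other wt medium arrays. Each LPS response in wt that was called also passed without this array. Its summed stromal signal, 28361, lay within the range of its group.

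The LPS response itself was then compared between genotypes (interaction term), and a difference was called for no member in 3 comparisons (limma, adjusted p below 0.05). Of 10 members, 2, 4 and 0 had an unadjusted p below 0.05 in MK2-/- minus wt, MK2/3-/- minus wt and MK2/3-/- minus MK2-/- BMDM. Over all genes the calls were 0%, 0.689% and 0.0671%, and with 1 array left out the 154 genes called in MK2/3-/- minus wt BMDM became 9 to 577 and the 15 in MK2/3-/- minus MK2-/- BMDM 1 to 41. The largest estimate was Il1a in MK2/3-/- minus wt BMDM at 4.28 (95% confidence interval 1.81 to 6.76, adjusted p = 0.0938), in which the medium group of MK2/3-/- BMDM was at background.

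Differences of 2 probes within an array are free of a shift of the whole array, and were described without a test. Il1b minus Il1rn stayed near the same value in all 6 groups, with means from 3.03 ± 0.78 (MK2-/- medium, n = 4) to 3.43 ± 0.35 (MK2/3-/- with LPS, n = 4). Il1a minus Il1b was -4.79 ± 0.79 in wt medium (n = 4) and -3.42 ± 0.34 with LPS (n = 3), -6.18 ± 1.17 and -2.95 ± 0.52 in MK2-/- (n = 4 each), and -7.91 ± 0.46 and -3.20 ± 0.27 in MK2/3-/- BMDM (n = 3 and 4). In medium this difference lay lower in the knockouts, and Il1a was not well above background on 1 of 4 wt, 3 of 4 MK2-/- and 3 of 3 MK2/3-/- arrays there. Il18 minus Il18bp had means from 0.23 ± 0.83 in MK2/3-/- medium (n = 3) to 1.05 ± 0.04 in LPS-treated MK2-/- BMDM (n = 4).

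**Figure D4:**
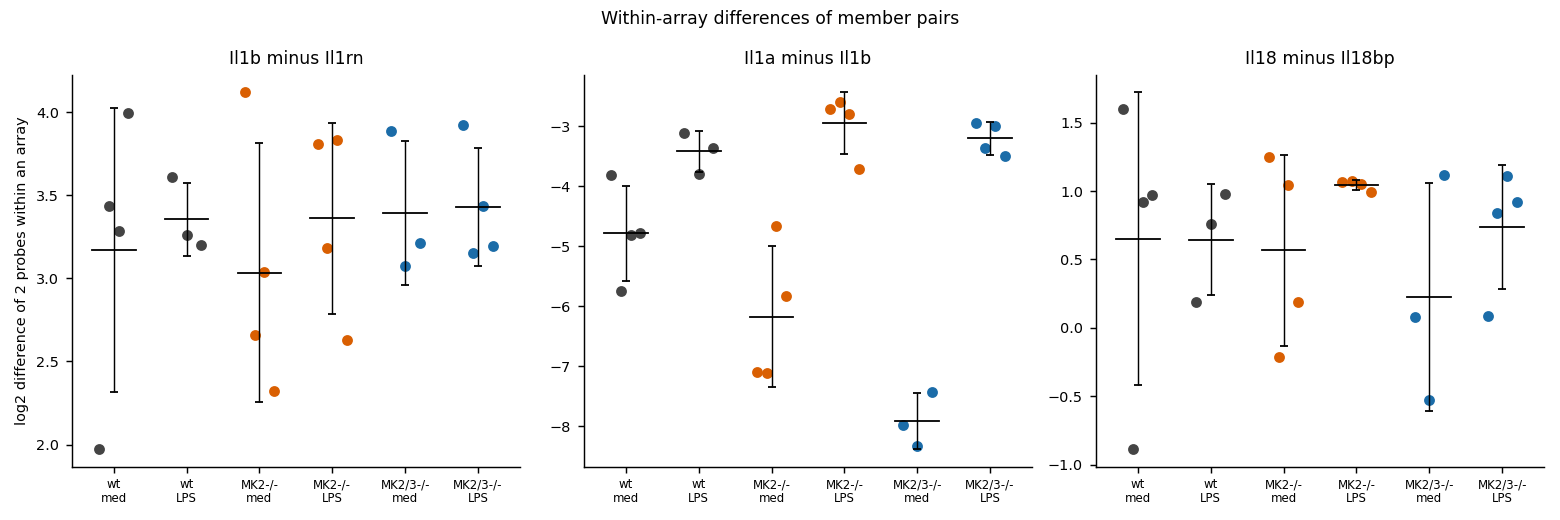
Log2 difference of 2 probes on the same array (vertical axis) for Il1b minus Il1rn, Il1a minus Il1b and Il18 minus Il18bp, by genotype and treatment (horizontal axis). Points are arrays, lines are group means and bars are 1 SD. Il1b minus Il1rn has group means of 3.03 to 3.43, whereas Il1a minus Il1b lies lowest in MK2/3-/- medium, at -7.91.

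Over the 22 arrays, the tested genes with a symbol whose signal was most like Il1b were Acod1, Oasl1 and Gbp2 (Pearson's r of 0.995 each), those most like Il1a were Hdc, Il6 and Mmp13 (r of 0.993, 0.992 and 0.990), and those most like Il1rn were Socs3, Cd40 and Dusp2 (r of 0.994, 0.994 and 0.994 over 22 arrays). These values share arrays and are dominated by the step from medium to LPS, since 987, 928 and 1088 genes had an r above 0.9 with Il1b, Il1a and Il1rn. Among the members Il1r2 was least like the others, with r between 0.23 and 0.33.

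Of 30 other genes of the pathway, 26 were tested. Those of processing and release, which include the inflammasome sensor Nlrp3, its adaptor Pycard, the caspases Casp1, Casp4 and Casp8 and the pore-former Gsdmd, were called higher with LPS in all genotypes (6 of 6). Of all genes, 18.6%, 17.6% and 20.3% were called higher in wt, MK2-/- and MK2/3-/- BMDM. Casp4 rose by 4.37 ± 0.26 in wt, 4.19 ± 0.25 in MK2-/- and 4.43 ± 0.26 in MK2/3-/- BMDM. Of 13 signalling genes, 6 were called higher and 4 lower with LPS in each genotype, beside the shares of all genes called higher given above and 23.5%, 27.2% and 28.0% called lower in wt, MK2-/- and MK2/3-/- BMDM. Peli2, an E3 ligase of the IL-1 and Toll-like receptor pathways, fell by 4.45 ± 0.61 in wt, from 10.02 to 5.58, and by 5.54 in MK2-/- (1 LPS array with a marked spot left out). Without both kinases Peli2 fell by 6.30, and it was well above background on 1 LPS array of each knockout. Over the 26 genes, 17 were called with LPS in each genotype, of which 12, 12 and 13 were higher, beside 42.2%, 44.7% and 48.3% of all genes called in either direction.

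Between genotypes under LPS, 2 of 26 genes were called in MK2-/- against wt, 4 in MK2/3-/- against wt and 3 in MK2/3-/- against MK2-/- BMDM. None was called in medium, where 8.88%, 2.02% and 2.83% of all genes were called in the same order. Beside 11.6%, 23.7% and 13.6% of all genes called under LPS, the list did not hold more calls than the background, and the values below describe single genes. Il1r1, the signalling receptor of IL-1, had log2 signals of 7.45, 6.54 and 5.84 on the LPS arrays of wt, of 2.03, 5.57, 3.77 and 5.13 on those of MK2-/- and of 2.91, 3.32, 2.95 and 4.11 on those of MK2/3-/- BMDM, none of the last well above background. It was called lower in MK2-/- (-2.48, adjusted p = 0.0471) and MK2/3-/- BMDM (adjusted p = 0.00582). The size of -2.48 is not exact, since the MK2-/- array at 2.03 was not well above background. The ranges of the stromal markers given above overlapped between these groups, and their part was not tested. Tab1, a partner of the kinase TAK1, had 10.52, 9.67 and 9.58 in LPS-treated wt, 9.31, 9.35, 9.18 and 8.72 in MK2-/- and 7.94, 8.10, 8.58 and 8.59 in MK2/3-/- BMDM. The 3 groups did not overlap. Taken pair by pair, groups did not overlap for 27.8% of all genes between MK2-/- and wt BMDM. This share was 28.3% between MK2/3-/- and wt BMDM and 14.3% between MK2/3-/- and MK2-/- BMDM. Compared to wt BMDM Tab1 fell by 0.78 ± 0.23 in MK2-/- and fell by 1.62 ± 0.23 in MK2/3-/- BMDM, and compared to MK2-/- BMDM it fell by 0.84 ± 0.21 in MK2/3-/- BMDM (adjusted p = 0.0366, 1.48e-04 and 0.0146). Nlrp3 was higher in MK2/3-/- than in wt BMDM by 0.90 (adjusted p = 0.00603), and Il1rapl1, an IL-1 receptor-like gene, was higher in MK2/3-/- than in wt BMDM by 2.48 (adjusted p = 0.0305). Il18rap, a subunit of the IL-18 receptor, was higher in MK2/3-/- than in MK2-/- BMDM by 1.89 (adjusted p = 0.0438), and Irak3, an inhibitor of the pathway, fell by 1.15 (adjusted p = 0.0127). Il1rapl1 was well above background on only 1 of 3 LPS-treated wt arrays, and Il18rap on 3 of 4 LPS-treated MK2-/- arrays. The sizes of the Il1rapl1 and Il18rap differences are therefore not exact. Nlrp3 and the last 2 values of Tab1 are outside the rule for named genes and were added after their values were seen.

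**Figure D5:**
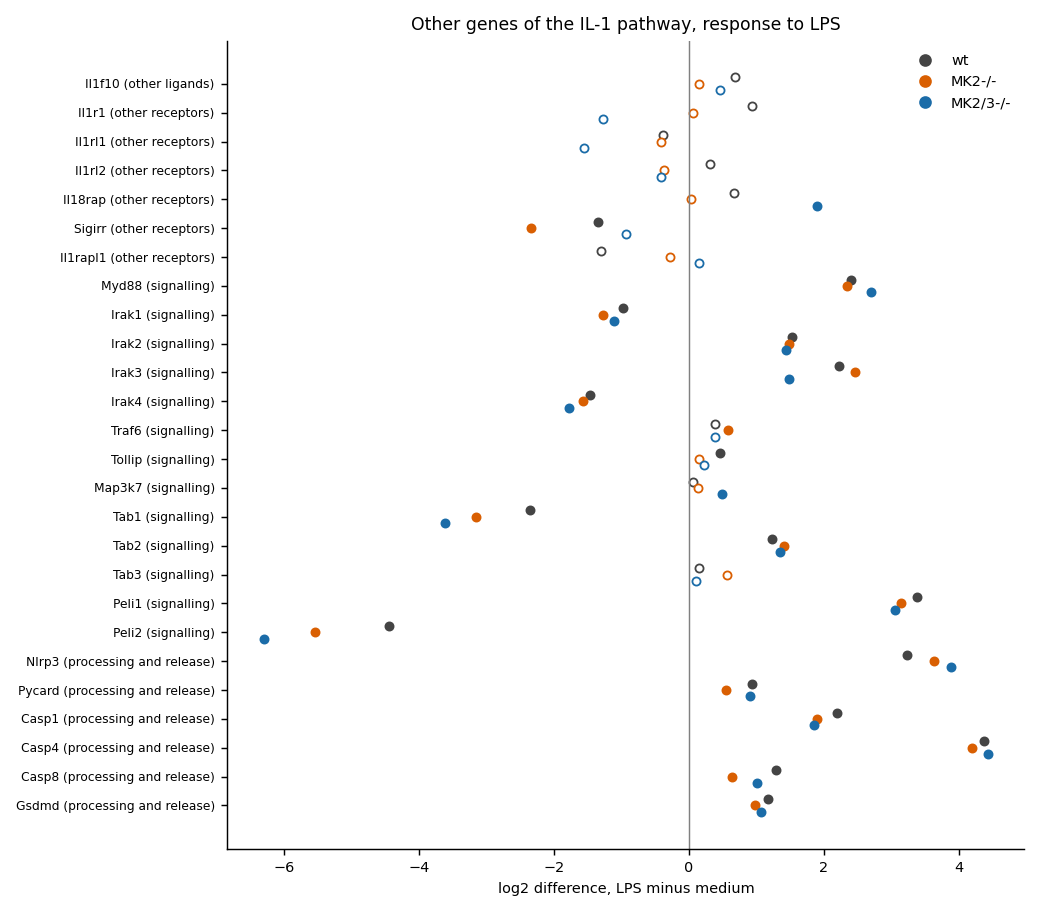
Log2 difference between LPS and medium (horizontal axis) for 26 other genes of the IL-1 pathway in wt, MK2-/- and MK2/3-/- BMDM, with the role of each gene in brackets. Points are estimates, filled where called at an adjusted p below 0.05. All 6 genes of processing and release lie above 0, whereas Peli2 lies lowest, at -4.45 to -6.30.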

How the data were processed

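RNA of each culture was hybridised by the authors to a 1-colour Agilent mouse array. The deposited scanner files hold a processed intensity per spot, background-corrected by Agilent Feature Extraction 11.0.1.1 and not normalised between arrays, and flags. Log2 values deposited by the authors, which correlated at 0.992 to 0.999 with the quantile-normalised values centred per probe, were an alternative. Here 3671 control spots were left out, spots marked as outliers were set to missing, log2 intensities were quantile normalised over 22 arrays, spots of a probe were averaged, and a probe was kept where 3 or more arrays measured it well above background. Symbols came from RefSeq accessions. The probe with the highest mean stood for its gene. A mean for each of 6 groups was fitted with limma 3.58.1 in R 4.3.3, with Benjamini-Hochberg adjustment over 22346 genes. For the second probe of Il1rap, the fit and the adjustment were over all non-control probes. Tests are two-sided. The fit was tested on simulated data. Named genes were all members, the 2 largest called differences of the pathway list and the 3 most correlated genes. Members and lists were chosen with earlier results of these data known. The methods state independent experiments, and the labels separate samples. The number of arrays limits the precision. Alternatives were other scaling, background correction, probe choice, filter, tests, blocks and arrays left out. Other time points were not analysed here.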

Additional observations from a re-analysis of the deposited data

Results flagged for a closer look

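In groups of 4 arrays, the gap between an extreme array and its nearest neighbour was set against the range of the group, over 44 groups of a probe and a condition. Chance alone picks about 1 in 20 where values are normally spread and groups are independent. Some of these groups lay at background and the probes share arrays, so this rate need not hold here. A gap above the limit was found in 5. Il1f6 on the medium-treated wt array 4 was at 6.40, against 2.74 on the next array, with a gap of 0.836 of the range. Il33 on the same array was at 4.65, against 2.04, with a gap of 0.978. Il1f6 on the medium-treated MK2-/- array 2 was at 3.78, against 2.03, with a gap of 0.988. The second probe of Il1rap on that array was at 2.38, against 4.52, with a gap of 0.849. Il1a on the LPS-treated MK2-/- array 4 was at 14.09, against 15.51, with a gap of 0.966. The causes were not tested.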

How the results depend on the processing

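The counts of members called with LPS kept within 1.5 times their value under all settings run, with 8 to 9 in wt and 9 in both knockouts when 1 array was left out. No member called under any setting changed its direction, over 14 settings and 22 fits without 1 array, while 40 and 51 values that were not called did. Of the 1680 results under other settings, 1643 kept their side of the threshold, 15 lost and 22 gained a call, and of the 2640 without 1 array, 2624 kept it. With normexp background correction the members called were 1 in MK2-/- against wt, 2 in MK2/3-/- against wt and 2 in MK2/3-/- against MK2-/- under LPS, and 0 in MK2-/- and 0 in MK2/3-/- against wt in medium. With the methods' t-test after adjustment it was 0 in MK2/3-/- against wt and against MK2-/- under LPS and 0 in both knockouts against wt in medium, and at its unadjusted threshold 0 and 3 in medium (MK2-/- and MK2/3-/- against wt) and 1 and 4 for the difference of LPS responses (MK2-/- and MK2/3-/- minus wt). In MK2/3-/- against MK2-/- under LPS it was 0 with 75th percentile scaling and 0 with only the compared groups fitted, and the latter gave 0 in MK2-/- against wt in medium, while in MK2/3-/- against wt Il1a lost its call and Il1rap gained one (adjusted p = 0.107 and 0.0384). Array weights gave 2 and 2 in medium against wt, and 1 for the LPS response of MK2/3-/- minus wt. Leaving out both arrays that stand apart, chosen after seeing the data, gave 2 in MK2/3-/- against wt and 0 against MK2-/- under LPS, and 0 in MK2-/- against wt in medium. Without 1 array each, the ranges were 1 to 2 and 0 to 1 in these LPS comparisons and 0 to 2 in both medium comparisons with wt. With the replicate block by letter or by number (correlations 0.144 and 0.118), no call of a member changed. The letter in the array names pairs cultures of the same age in 10 of 10 cases, and deviations correlated above 0.1 in 7 of these 10 pairs and in 6 of 30 with unlike letters, so that a pairing was not shown for every pair. Over all genes, 75th percentile scaling moved the median LPS difference to 0.30, 0.28 and 0.29. Of the genes called with LPS in wt, the share that was higher moved from 44.2% to 60.5%. The same scaling called 4278 genes against 452 in MK2/3-/- against wt in medium. Over the settings, calls over all genes ranged most for genotypes: 62 to 8218 (5288 as reported) in MK2/3-/- against wt under LPS. The causes were not tested.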
